A study of Mus musculus with 108 samples.

Results

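The translation initiation factors (eIFs) and elongation factors (eEFs) are the proteins that start and extend polypeptide chains on the cytoplasmic ribosome. They were described here in acinar cells of the pancreas, which make and secrete digestive enzymes. The genes were taken by name, as protein-coding genes whose symbol starts with Eif1 to Eif6, Eef1 or Eef2. Kinases of the factors (the Eif2ak genes and Eef2k), the X- and Y-linked copies of Eif2s3, Eif1ax and pseudogenes were left out. This gave 59 of the 45195 gene rows, and no measured value entered the choice. Among them are a few neighbours that the prefix brings in, such as the methyltransferases of eEF1A and eEF2, which are described as accessory genes.

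The study profiled single acinar cells from untreated male C57BL/6 mice of 12 weeks, with a modified SMART-seq2 protocol and no molecular identifiers, to describe the differences between acinar cells in the normal pancreas. All cells formed 1 group with no treatment, genetic change or control group, and the labels tie no cell to an animal, so the cells together stand for 1 sample. No test between cells was therefore made, and each SD, range or correlation describes the spread over cells. Values are TPM, a share of each cell's total corrected for transcript length, so that levels of different genes can be compared.

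Initiation begins when eIF2, carrying the initiator tRNA, joins the small ribosomal subunit together with eIF1, eIF1A and the large scaffold eIF3. The cap-binding complex of eIF4E, eIF4G and the helicase eIF4A brings this subunit to the mRNA, where it scans for a start codon. eEF1A then delivers each aminoacyl-tRNA to the ribosome, the eEF1B subunits recharge eEF1A with GTP, and eEF2 moves the ribosome along the mRNA. Acinar cells are known for a very high rate of secretory protein synthesis.

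Many mRNAs of ribosomal proteins and of elongation factors begin with a tract of pyrimidines at the 5′ end, called the TOP motif, through which their translation is controlled together. Stretches of 30 bases near the RefSeq starts (GRCm38.p6) of the factors on which the results below turn are therefore shown, on the strand of the gene. Capitals mark the longest run of C and T between 20 bases before and 50 bases after the start, where it reached 8 bases. The ribosomal protein genes Rps6 and Rps10 are shown for comparison, and the last 4 factors have no such run. With the RefSeq start counted as base 1, the run covers that start in Eef1a1, Eif3f, Eif3l, Rps6 and Rps10. It begins within the transcript in Eef2 (base 15) and Eif3k (base 14), and in Eif3m it ends 10 bases before the start. The RefSeq start of Eef1a1 lies inside the longer gene span given below, and which start these cells use is not known. A run that does not begin at the first base of the mRNA is not a TOP motif, so the capitals mark runs of C and T and no more.
Eef1a1 (chr9:78481710-78481739, minus strand): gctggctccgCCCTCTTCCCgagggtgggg
Eef2 (chr10:81176634-81176663, plus strand): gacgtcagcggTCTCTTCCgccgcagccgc
Eif3f (chr7:108934403-108934432, plus strand): gttctaggCTCTCTCTCTTTCTCggcaaga
Eif3k (chr7:28981856-28981885, minus strand): gctgaaagcgCCTTTCCCTTTgccttcctt
Eif3m (chr2:105017028-105017057, minus strand): tacggcaccgCTCTCTTTTCCggtcggcgt
Eif3l (chr15:79075206-79075235, plus strand): aggcgcggagTTCTTCTTCCgctctctccc
Rps6 (chr4:86857349-86857378, minus strand): ggaagtcgggCCTCTTTTTCgtgacgcctc
Rps10 (chr17:27635227-27635256, minus strand): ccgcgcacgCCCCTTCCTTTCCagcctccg
Eef1b2 (chr1:63176816-63176845, plus strand): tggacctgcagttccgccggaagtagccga
Eif3b (chr5:140419290-140419319, plus strand): ctagcggcgcgcggtgacttctgggagtcg
Eif4a1 (chr11:69672409-69672438, minus strand): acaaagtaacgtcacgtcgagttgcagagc
Eif4a2 (chr16:23107453-23107482, plus strand): ccgcggaaaccccgtaggagcagggcggcc

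The cells carried the acinar programme, with 9 of 10 acinar markers at or above 1 TPM in every cell. Endocrine markers reached at most 1 of 6 in any cell and macrophage markers at most 2 of 5. At least 3 markers were found for endothelial cells in cell 40 and for fibroblasts in cell 96, and for ducts in 30 cells. The 21 cells with the highest numbers, from 92 upward, have TPM that add up to clearly less than 1000000, down to 788380, and these are called short-total cells. The labels say that 24 cells received ERCC spike-in RNAs without naming them. Whether the short-total cells are those cells is not known here, and the part of spike-ins in their totals and TPM was not tested. The other 87, full-total cells, are divided by number into cells 49 to 91 (40 cells) and cells 1 to 48 (47 cells). Read depth is unknown, since TPM do not keep it, and the number of genes at or above 1 TPM ran from 2624 in 1 short-total cell, called the sparsest cell below, to 6946 in cell 40.

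Translation factor transcripts spanned a wide range of levels. The 59 genes together held a median of 1204 TPM per cell, from 676 TPM in the sparsest cell to 1931 TPM in cell 54 (mean 1214 ± 219 TPM, SD over cells). Elongation factors held more of this sum than all Eif genes together, at a median of 702 TPM against 488 TPM. The ratio of these sums lay between 0.940 and 2.17 with a median of 1.42. The Eif genes include Eif5a, Eif4a3 and the Eif4ebp genes, whose roles are given below. A list of 40 digestive enzymes and granule proteins filled 90.1% of the mean cell. Outside those genes, translation factors made up a median of 1.27% of the TPM. For each TPM of translation factor, a median of 9.35 TPM of ribosomal protein transcripts was present.

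At or above 1 TPM, a median of 47 of the 59 factors was found per cell, from 35 in the sparsest cell to 52 in cell 4. Of the 59, 20 reached 1 TPM in every cell, and 11.1% of the 7227 genes that passed the low-value filter did. This depended on level. At means of at least 10 TPM it held for 14 of 15 factors and 557 of 670 other genes that are not ribosomal. Below 10 TPM it held for 6 of 38 factors that passed the filter and 169 of 6477 such genes. The filter kept genes at or above 1 TPM in at least 11 cells, and 53 factors passed it. The 6 that did not were Eef1a2, Eif4e1b, Eif5a2, Eif4e3, Eif4ebp3 and Eef1akmt3. Eif5a2 stayed at or under 0.240 TPM and Eif4e3 at or under 0.800 TPM, and Eif4ebp3 and Eef1akmt3 reached 1 TPM in 5 cells each. Eef1a2 and Eif4e1b were listed at 0 TPM in every cell, and the exact 95% interval for their share of cells at or above 1 TPM reaches up to 3.36%. It covers counting error over cells only, and without reads a listed 0 sets no limit on the cells that express a gene.

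**Figure D1:**
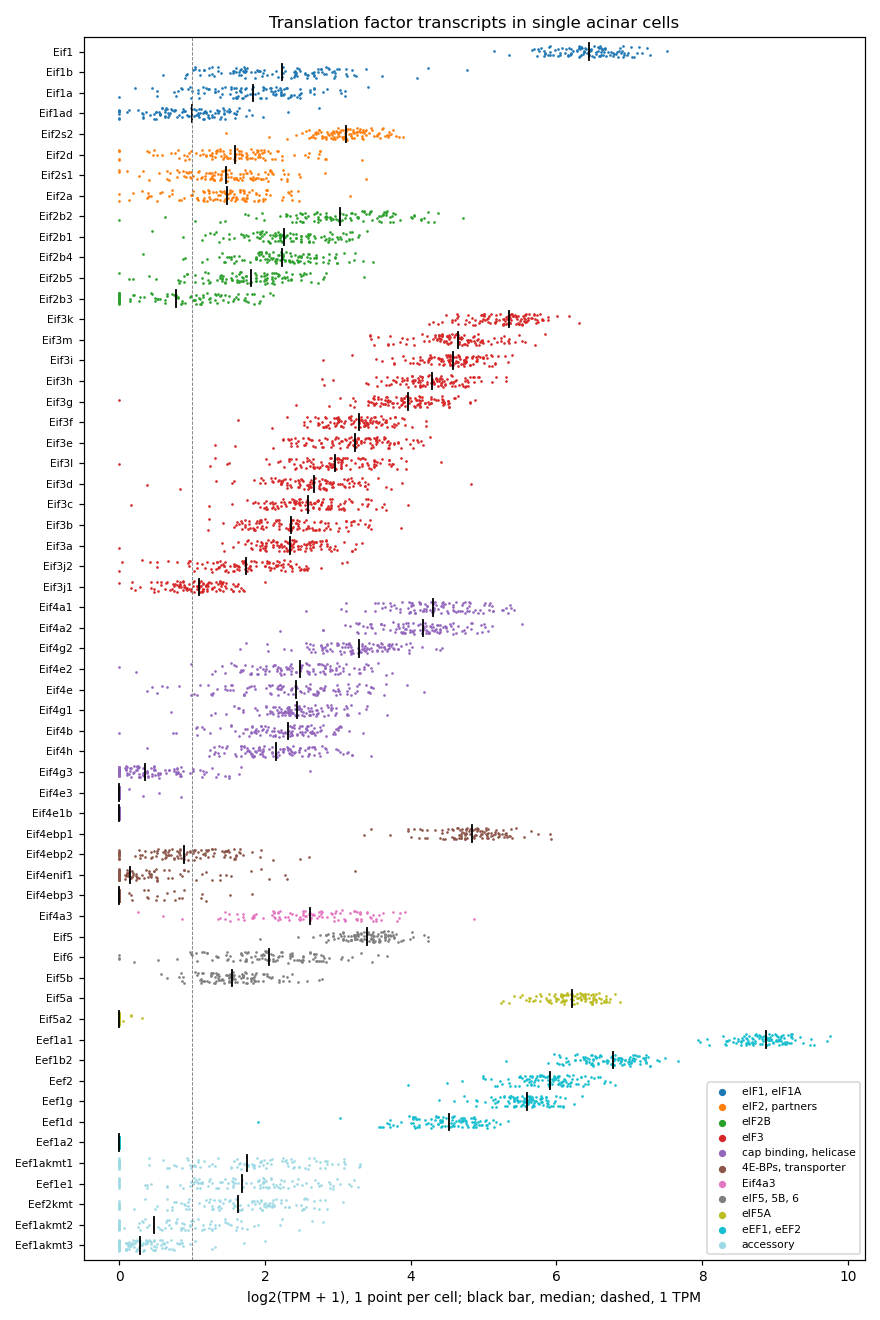
Levels of the 59 translation factor genes in all acinar cells, grouped by role, on a log2(TPM + 1) axis. Each point is 1 cell, the black bar is the median and the dashed line is 1 TPM. Eef1a1 stands to the right of all other factors, with a median of 468 TPM, and Eef1a2 and Eif4e1b are at 0 in every cell.

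Eef1a1, the aminoacyl-tRNA carrier, was the most abundant factor by a wide margin. It had 245 TPM in the sparsest cell, its lowest value, a median of 468 TPM and 858 TPM in cell 54, its highest. Its mean of 471 TPM (CV 0.240 over cells) ranked 48 among all genes and was 4.37 times that of the next factor. Eef1a1 alone held a median of 38.5% of all translation factor TPM. Its gene lies at chromosome 9, 78478449 to 78489151 on the minus strand of GRCm38. Of its transcript sequence, 59.2% of 50-base stretches also occur in other genes, mainly the pseudogene Gm13456, so that its value depends on how reads were shared between these genes.

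The partners of eEF1A followed at lower levels. Eef1b2, a nucleotide exchange subunit of eEF1B (chromosome 1, 63176825 to 63180486), ran from 38.6 TPM in cell 70 to 203 TPM in cell 31. Its median was 94.1 TPM in short-total cells, 92.1 TPM in cells 49 to 91 and 114 TPM in cells 1 to 48. Eef1g, the gamma subunit, had 19.9, 47.1 and 80.7 TPM as lowest, median and highest value. Eef1d, a further exchange subunit, had 2.73, 22 and 39.2 TPM. The 3 subunits thus differed in level although they form a complex, and 64.3% of the 50-base stretches of Eef1g are shared, mostly with Gm4366. Eef2, the translocation factor (chromosome 10, 81176631 to 81182498), had 14.6, 58.9 and 110 TPM. The ratio of Eef1a1 to Eef2 within a cell was 7.83 at the median and 24.2 at most, in cell 98, which held the lowest Eef2.

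Among the factors of start codon selection, Eif1 was high and its paralog low. Eif1, which keeps the scanning complex open, had 34.2 TPM in cell 16, a median of 86.3 TPM and 182 TPM in cell 40. Eif1b had a median of 3.71 TPM and 26.4 TPM at most, also in cell 40, and took 4.65% of the summed TPM of this pair. Eif1a, the autosomal gene for eIF1A, had a median of 2.56 TPM.

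Subunits of a single complex differed widely in level. In eIF2, the beta subunit Eif2s2 averaged 7.89 ± 2.26 TPM and the alpha subunit Eif2s1 1.99 ± 1.31 TPM, a ratio of 3.98. Eif2a and Eif2d, which can deliver initiator tRNA outside the eIF2 pathway, averaged 1.90 ± 1.19 and 2.23 ± 1.53 TPM. In eIF2B, the exchange factor that recharges eIF2 with GTP, Eif2b2 averaged 8.26 ± 4.55 TPM and Eif2b3 0.907 ± 0.902 TPM, a ratio of 9.10. Between them lay Eif2b1 at 4.31 ± 1.99 TPM, Eif2b4 at 3.97 ± 1.83 TPM and Eif2b5 at 2.68 ± 1.49 TPM. Eif2b3 reached 1 TPM in 45 cells (41.7%, exact 95% interval 32.3% to 51.5%, which covers counting error only).

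The 14 eIF3 genes gave a ladder of levels. Eif3k stood highest at 39.2 ± 11 TPM, with 18.1, 39.7 and 78.5 TPM as lowest, median and highest value, and was followed by Eif3m at 24.9 ± 8.81 TPM, Eif3i at 23.3 ± 6.52 TPM, Eif3h at 19.2 ± 6.25 TPM and Eif3g at 15.0 ± 4.90 TPM. Neighbours in this order overlapped within their SDs. Eif3f at 8.85 ± 2.82 TPM, Eif3e at 8.62 ± 3.50 TPM and Eif3l at 7.30 ± 3.15 TPM came next, and Eif3d, Eif3c and Eif3b lay between 5.91 and 4.63 TPM. Eif3a, the large scaffold subunit, averaged 4.34 ± 1.61 TPM, 9.03 times less than Eif3k. Eif3j1, a loosely bound subunit, averaged 1.15 ± 0.547 TPM, and 39.8% of its 50-base stretches are shared with Eif3j2, so that their separate values are uncertain. The longer the transcript, the lower the level tended to be, with a Spearman correlation of -0.88 between the longest coding transcript and the mean TPM over the 14 genes. The same correlation was -0.35 over all 59 factors and -0.38 over 6788 protein-coding genes that passed the filter. TPM already divide by length, and genes are not independent replicates in these correlations.

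**Figure D2:**
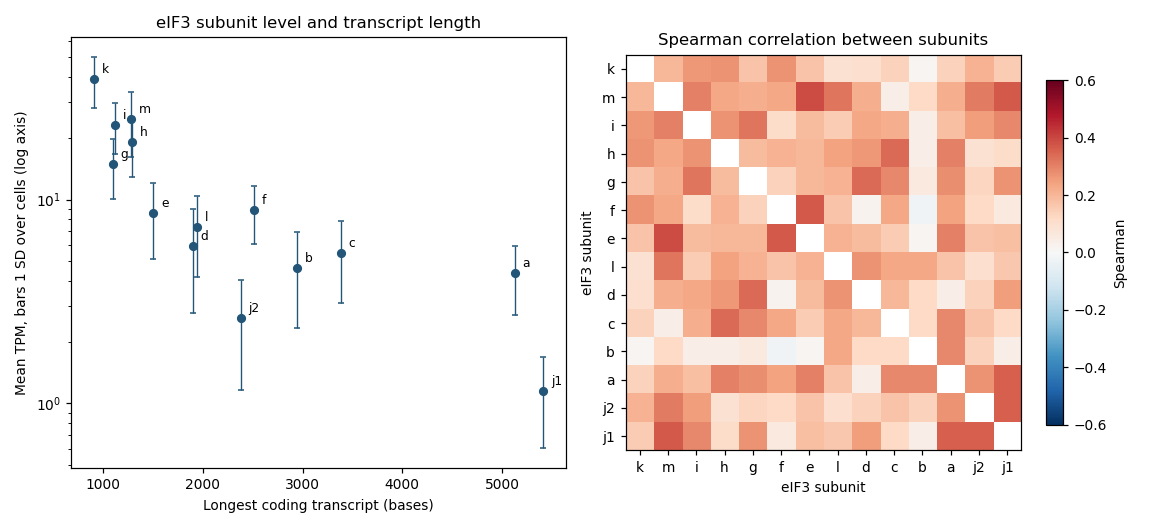
Left, mean TPM of each eIF3 subunit gene over all cells (log axis, bars 1 SD over cells) against the length of its longest coding transcript in bases. Right, Spearman correlations between subunits over the cells, ordered by mean TPM. The short Eif3k is highest and the long Eif3j1 lowest, and the pairs lie between -0.02 and 0.39.

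The cap-binding machinery was present at moderate levels, with both eIF4A helicases in near-equal amounts. Eif4a1 had 4.90, 18.9 and 41.6 TPM as lowest, median and highest value, and Eif4a2 3.63, 17 and 45.1 TPM. Eif4a1 took 54.5% of their summed TPM and Eif4a2 45.5%, and Eif4a2 was the higher of the pair in 43 cells. The order turned in short-total cells, where Eif4a1 took 46.3%, against 56.2% in full-total cells. Of the 50-base stretches of Eif4a1, 65.3% are shared with other genes, chiefly the pseudogene Eif4a-ps4, and 11.5% of those of Eif4a2 are. Eif4a3, the helicase of the exon junction complex, was lower, at a mean of 5.98 ± 3.82 TPM.

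Eif4e, the cap-binding protein, averaged 4.84 ± 3.12 TPM, close to the 4.94 ± 2.50 TPM of its homologue Eif4e2, which was the higher of these genes in 57 cells. Eif4b and Eif4h, which stimulate the helicase, averaged 3.97 ± 1.72 and 3.76 ± 1.78 TPM. Among the scaffolds, Eif4g2, the divergent family member that lacks the eIF4E-binding site, held 63.6% of the summed TPM and exceeded Eif4g1 in 99 cells. Eif4g1, the classical scaffold, held 32.9% and Eif4g3 3.48%, which alone among the Eif4g genes was at 0 TPM in some cells, 22 in number.

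Eif4ebp1, the inhibitor that binds eIF4E when mTOR is inactive, was much more abundant than its target at the transcript level. It had 9.22 TPM in cell 98, a median of 27.8 TPM and 59.8 TPM in cell 60. Its mean of 28.6 ± 9.01 TPM was 5.91 times that of Eif4e, and it took 96% of the summed TPM of the Eif4ebp family. Eif4ebp2 held 3.55% of that sum, at a median of 0.860 TPM, and Eif4ebp3 0.479%.

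Eif5a, a factor that relieves ribosomes stalled at difficult sequences and carries the amino acid hypusine, was among the most abundant initiation-group genes. It had 36.7 TPM in cell 98, a median of 73.2 TPM and 116 TPM in cell 51. Its paralog Eif5a2 took 0.00650% of their summed TPM. Of the factors of subunit joining, Eif5 averaged 9.75 ± 2.64 TPM, the GTPase Eif5b 2.14 ± 0.994 TPM, and Eif6, which keeps the ribosomal subunits apart, 3.61 ± 2.22 TPM. The accessory genes Eef1akmt1, Eef1e1 and Eef2kmt averaged between 2.34 and 2.69 TPM, and Eef1akmt2 0.803 TPM.

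The factors varied little between cells for their level. Against the trend of the squared coefficient of variation (CV) on the mean, 1 of 53 factors reached 2 times the trend, while 12.0% of the 7227 genes did. This was Eif4enif1, the transporter of eIF4E, at 2.71 times the trend, at 0.105 TPM in the median cell and 8.39 TPM in cell 75, the highest. Just below the limit, Eif1b stood at 1.96 times. The median factor stood at 0.749 times the trend. The lowest CVs belonged to Eef1g (0.228), Eif5a (0.232) and Eef1a1 (0.240).

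Elongation factor transcripts followed those of ribosomal proteins from cell to cell. A ribosomal protein score was computed as the mean z-score of log2(TPM + 1) over 80 ribosomal protein genes, and each factor was compared with it by Spearman correlation over all cells, 21 short-total and 87 full-total. All genes of a cell share its library, its depth and its TPM total, so these correlations are descriptions. The 5 measured elongation factors that passed the filter all stood at or above 0.3, with a median of 0.47. All 5 had means of at least 10 TPM. The 670 other genes of that level had a median of 0.18, and 24.9% of them stood at or above 0.3. The median over all 53 factors was 0.18, and over the 7147 other genes 0.06. With median-of-ratios scaling, described below, these medians were 0.01 for the factors and -0.06 for the other genes.

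Eef1b2 had the highest correlation of all factors, at 0.82 (Pearson 0.80, also when the 2 cells farthest from the median score were left out), and ranked 2 among those 7147 genes. It stayed between 0.77 and 0.84 within each set of cells. Eef1a1 stood at 0.58 (Pearson 0.59, and 0.61 without the 2 farthest cells), Eef1g at 0.47, Eef2 at 0.43 and Eef1d at 0.41. Eef1a1 was at 0.53 within short-total cells, 0.39 within cells 49 to 91 and 0.66 within cells 1 to 48, and Eef2 at 0.51, 0.33 and 0.47 in the same sets. Eef1g was at 0.77, 0.28 and 0.48 and Eef1d at 0.39, 0.44 and 0.26, so that each fell below 0.3 within a set. With each cell scaled by the median of ratios over the 1226 genes above 0 in every cell, Eef1b2 stood at 0.78, Eef1a1 at 0.47 and Eef2 at 0.37, while Eef1g and Eef1d were under 0.3, at 0.28 and 0.19.

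**Figure D3:**
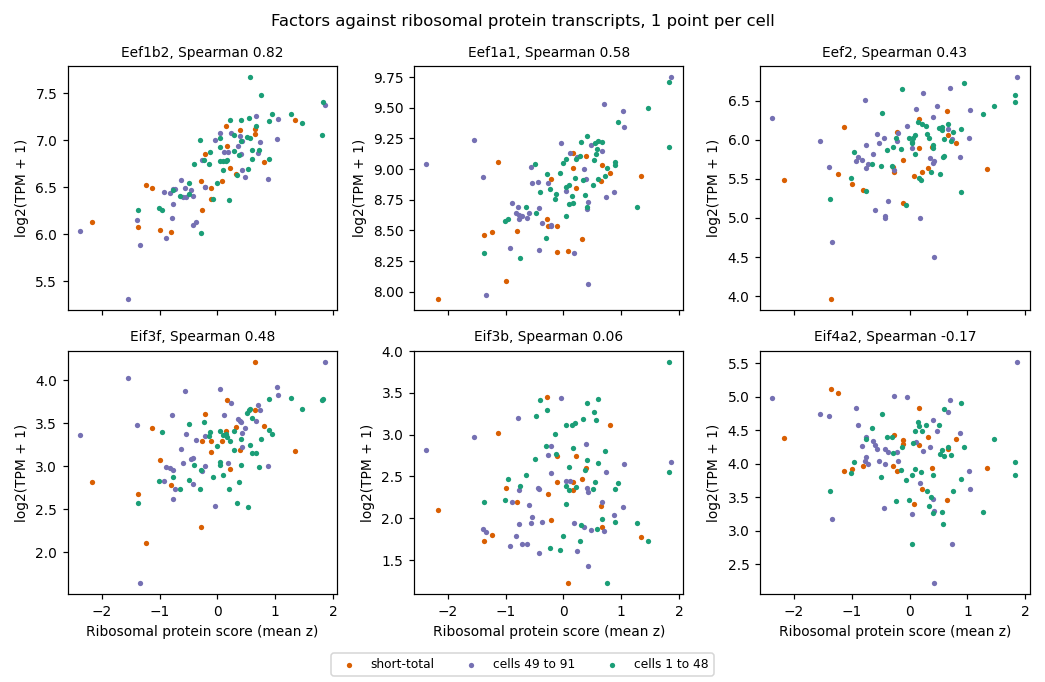
Levels of 6 factors in log2(TPM + 1) against the ribosomal protein score (mean z), 1 point per cell, coloured by set of cells. Eef1b2 follows the score closely (Spearman 0.82), Eif3b does not (0.06), and Eif4a2 has a value of -0.17, which turns to 0.09 on TPM rescaled without the digestive enzymes.

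Over all factors, 14 of 53 stood at or above 0.3 with the ribosomal protein score, where 3.95% of the other genes did. Correlations were higher among abundant genes. Among factors with a mean of at least 10 TPM, 11 of 15 did, against 24.9% of the 670 other genes of that level. Below 10 TPM it was 3 of 38 factors, against 1.78% of 6477 genes. The 14 were the 5 elongation factors, 7 eIF3 subunits, Eif1 (0.33) and Eif4ebp1 (0.31). Eif3a, at 0.30, lay just inside the limit and Eif5a, at 0.28, just outside it. With median-of-ratios scaling 6 of the 14 stayed at or above 0.3, namely Eef1a1, Eef1b2, Eef2, Eif3e, Eif3f and Eif3k, against 0.965% of the other genes.

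eIF3 subunits were divided. Eif3f and Eif3k stood at 0.48, Eif3e at 0.41, Eif3h at 0.37, Eif3m at 0.35 and Eif3i at 0.33, whereas Eif3b stood at 0.06 and Eif3l at 0.14. The median of the 14 subunits was 0.28, but 0.03 with median-of-ratios scaling. Of the 8 subunits that form the octamer core of eIF3 (a, c, e, f, h, k, l and m), 6 stood at or above 0.3, and of the 6 others 1 did, Eif3i. This division of the subunits was made after the values were seen.

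The eIF2, eIF2B and cap-binding groups held no factor at or above 0.3. Of these 18 genes, 16 had means below 10 TPM, the level at which 1.78% of other genes reached 0.3, so that this count too is near the background. Their medians were 0.19 for eIF2 and its partners (4 genes), 0.06 for eIF2B (5 genes) and 0.11 for the cap-binding group (9 genes). Eif4a2 had the lowest correlation of all 53 factors, at -0.17, but stood at 0.09 when TPM were rescaled without the digestive enzymes. Eif2b3 was at -0.10, and it was at 0 TPM in 32 cells.

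**Figure D4:**
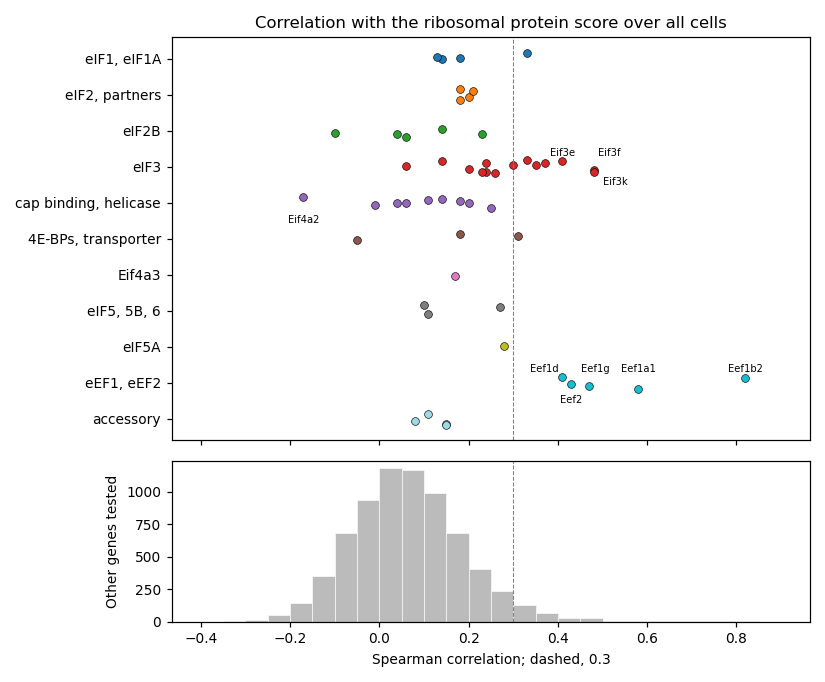
Top, Spearman correlation of each of 53 translation factors with the ribosomal protein score over all cells, by role. Bottom, the same for the 7147 other genes that passed the filter, as a histogram. The dashed line is 0.3, and all 5 elongation factors and 7 of 14 eIF3 genes are at or to the right of it.

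Taken as a score, elongation factors followed the ribosomal protein score at 0.76 (Pearson 0.76, and 0.76 without the 2 farthest cells). This was 0.79 in short-total and 0.79 in full-total cells, 0.65 in cells 49 to 91, 0.74 in cells 1 to 48 and 0.67 with median-of-ratios scaling. The eIF3 score followed it at 0.59 (Pearson 0.62, and 0.59 without the 2 farthest cells), and at 0.39 with median-of-ratios scaling. The eIF3 score stood at like values with other gene lists described below. These were tRNA synthetases (0.61), endoplasmic reticulum chaperones (0.55, but -0.01 with median-of-ratios scaling) and ATF4 stress genes (0.50). The elongation score stood at 0.30, 0.28 and 0.28 with the same lists. The number of genes detected per cell moved with the eIF3 score (0.63) and the elongation score (0.41), and less with the ribosomal protein score (0.16). Taken as residuals on that number, the elongation and eIF3 scores stood at 0.77 and 0.67 with the ribosomal protein score, as large as before.

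The genes outside the factors most like the elongation score included the ribosomal proteins Rps6, Rps2 and Rplp0 at 0.77 each and Rpl3 at 0.75, and 42 of the 50 nearest genes were ribosomal. For the eIF3 score the 5 nearest were Rpl3 at 0.69, Rpl7a at 0.65, Rpl24 and Rps2 at 0.64 and Rps10 at 0.63, with 26 of 50 ribosomal.

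Other translation genes stood mostly below 0.3 with the ribosomal protein score. None of 12 poly(A)-binding, termination and recycling genes (median 0.11, with Pabpc1 and Mcts1 highest in level) stood at or above 0.3, nor any of 14 kinases and regulators (median -0.02, led by Mknk1 and Pdcd4), 22 tRNA synthetases and partners (median 0.01, led by Wars and Nars) or 8 mitochondrial factors (median 0.09, led by Tufm and Mrrf). Of these 56 genes, 53 had means below 10 TPM, where 1.78% of other genes reached 0.3, so that a count of 0 is near the background. Of 7 other genes with known TOP mRNAs, 5 reached 0.3, with a median of 0.59 over the 7, led in level by Tpt1 (0.72) and Rack1 (0.73). These 5 all had means of at least 10 TPM, where 24.9% of other genes reached 0.3. The 2 that did not reach it had means below 10 TPM.

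Runs of C and T such as those shown above were found for a larger share of the factors at or above 0.3 than of those below it, anywhere in the window around the annotated start. A run of at least 8 C or T was found on the gene's strand for 14 of 43 factors with a RefSeq start (32.6%), 47 of 59 ribosomal protein genes (79.7%) and 7705 of 27025 genes (28.5%). It was found for 6 of 8 factors at or above 0.3 with the ribosomal protein score (75%) and for 7 of 33 tested factors below it (21.2%). Eef1b2, with the highest correlation, had a longest run of 5, and Eif3l had a run of 10 at a correlation of 0.14. These counts take a run anywhere in the window and are no count of TOP motifs. Of the 6 factors at or above 0.3 with a run, it covered the start only in Eef1a1 and Eif3f. The run began at base 15 in Eef2, 14 in Eif3k and 30 in Eif3a, and in Eif3m it ended 10 bases before the start. The window and run length were chosen after the values were seen, and an annotated start may differ from the one used in these cells.

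Pairs of elongation factors moved together more than subunits of the initiation complexes. Their pairs had a median Spearman correlation of 0.41, from 0.24 to 0.66, and the highest pair among all 1378 pairs of factors was Eef1a1 with Eef2 at 0.66 (Pearson 0.68, and 0.68 without the 2 farthest cells). Pairs of eIF3 subunits had a median of 0.20, of eIF2 genes 0.24, of cap-binding genes 0.15 and of eIF2B subunits 0.11. The median was 0.61 between ribosomal proteins and 0.06 between all genes that passed the filter. It was higher among abundant genes. Factors with means of at least 10 TPM stood at 0.25 and those below at 0.10, against 0.13 and 0.05 for other genes. All 5 elongation factors had means of at least 10 TPM. Of the eIF3 genes 9 of 14 lay below it, as did 7 of 9 cap-binding genes and all eIF2 and eIF2B genes. The part of level in these differences was not tested. With median-of-ratios scaling, pairs of elongation factors stood at 0.28 and pairs of eIF3 subunits at 0.03, beside 0.54 for ribosomal proteins and 0.02 for all genes. The next highest pairs among the factors were Eef2 with Eif3f at 0.63 and Eef1a1 with Eef1b2 at 0.60. A further group of pairs was centred on Eif5a, with Eif4a1 (0.59), Eef1g (0.55) and Eif4h (0.54).

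Eif5a and Eif4a1 had positive correlations with chaperones of the endoplasmic reticulum (ER), which fold secretory proteins. With a score of 15 ER chaperones, led in level by Pdia2 and P4hb, Eif5a stood at 0.59 (Pearson 0.62, and 0.57 without the 2 farthest cells) and Eif4a1 at 0.56 (Pearson 0.59, and 0.55). Within the sets of cells, Eif5a stood at 0.60 in short-total cells, 0.31 in cells 49 to 91 and 0.49 in cells 1 to 48, and Eif4a1 at 0.58, 0.44 and 0.40 in the same sets. With the ribosomal protein score Eif5a stood at 0.28 and Eif4a1 at 0.20. Eif4h stood at 0.46 with the ER chaperones, Eif5 at 0.45 and Eif3d at 0.44. In all, 22 of 53 factors stood at or above 0.3 with this score, against 12.8% of other genes. With median-of-ratios scaling this held for 1 factor, Eif4a1 at 0.33, against 1.86% of other genes, and Eif5a lay just under the limit, at 0.30 when rounded. As residuals on the number of genes detected, 6 factors did, against 3.40%, with Eif5a at 0.50 and Eif4a1 at 0.42. The number of genes detected itself stood at 0.57 with Eif5a and at 0.53 with Eif4a1.

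The paralogs Eif4a1 and Eif4a2, which both encode eIF4A helicases, had different correlations with these genes, and the difference itself was not tested. Over cells they stood at 0.13 with each other. Eif4a2 stood at 0.11 with the ER chaperone score and at 0.48 with a score of 10 immediate-early genes, led in level by Fos and Jun (Pearson 0.54, and 0.52 without the 2 farthest cells). Eif4a1 stood at 0.02 with the immediate-early score over all cells, but at 0.43 within short-total cells, 0.16 within cells 49 to 91 and 0.12 within cells 1 to 48. Eif4a2 was the only factor at or above 0.3 with it, against 2.40% of other genes, so that this count is near the background. Its correlation was 0.17 within short-total cells, below that of Eif4a1, 0.70 within cells 49 to 91 and 0.35 within cells 1 to 48, and 0.52 with median-of-ratios scaling. With the ER chaperones, Eif4a2 stood at 0.01 within short-total cells, 0.04 within cells 49 to 91 and 0.31 within cells 1 to 48, and at -0.18 with median-of-ratios scaling.

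**Figure D5:**
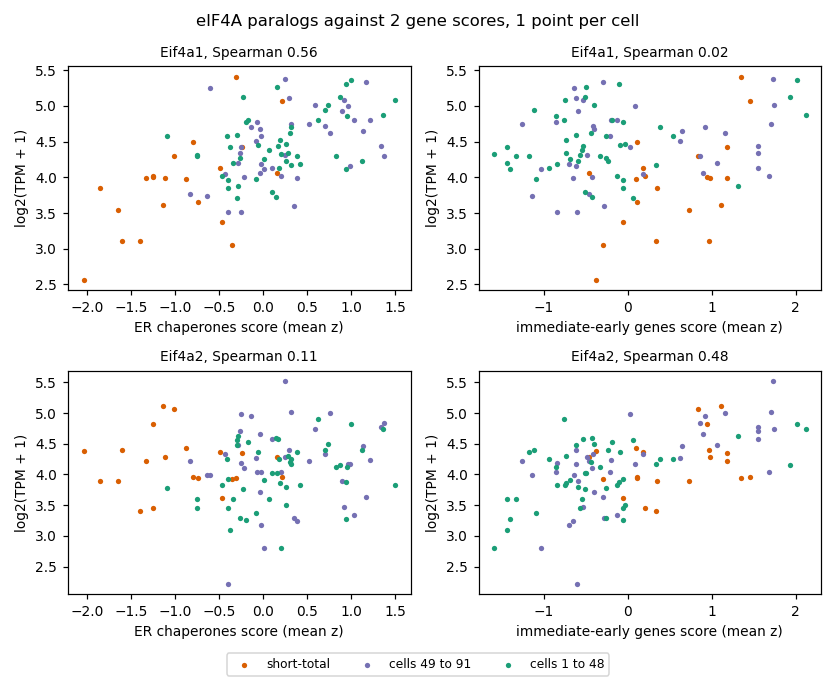
Eif4a1 (top) and Eif4a2 (bottom) in log2(TPM + 1) against scores (mean z) of ER chaperones (left) and immediate-early genes (right), 1 point per cell, coloured by set of cells. Over all cells, Eif4a1 stands at a Spearman correlation of 0.56 with the ER chaperones and Eif4a2 at 0.48 with the immediate-early genes. The crossed pairs stand at 0.02 and 0.11. Within short-total cells Eif4a1 stands at 0.43 and Eif4a2 at 0.17 with the immediate-early genes, and within cells 1 to 48 Eif4a2 stands at 0.31 with the ER chaperones.

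Stress genes and tRNA synthetases moved with a share of the factors. With a score of 10 genes of the ATF4 stress response, led in level by Herpud1 and Asns, 19 of 53 factors stood at or above 0.3, against 10.7% of other genes. Eif4ebp1, a known ATF4 target, stood at 0.44, and at 0.25 within short-total cells, 0.33 within cells 49 to 91 and 0.12 within cells 1 to 48. With the score of tRNA synthetases 23 factors did, against 20.6% of other genes, with Eif5a at 0.57 but at 0.11 with median-of-ratios scaling. Neither count was taken with another scaling or set against genes of like level. The count with the ER chaperone score fell from 22 to 1 with median-of-ratios scaling.

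Short-total cells held lower TPM of most factors, and their totals were lower too, with the part of spike-ins unknown. By medians of log2(TPM + 1), short-total minus full-total, 48 of 53 factors were lower, where 70.0% of all genes were. The median difference was -0.29, against -0.15 over all genes, but it depended on level and pseudocount. At means of at least 10 TPM it was -0.29 for the factors (14 of 15 lower) and -0.28 for other genes (576 of 670 lower). Below 10 TPM it was -0.27 against -0.14. With a pseudocount of 0.1 it was -0.31 for the factors and -0.27 for all genes. Eif5a had a median of 51.7 TPM in short-total and 79 TPM in full-total cells, a difference of -0.60, and the sets overlapped, at 36.7 to 79.6 TPM and 48.3 to 116 TPM. Eef1a1 had a median of 386 TPM in short-total and 473 TPM in full-total cells. Rescaled without the digestive enzymes, the median difference of the factors was -0.02, beside 0.00 over all genes. In cells 49 to 91, 36 of 53 factors were lower than in cells 1 to 48, where 56.7% of all genes were, with a median difference of -0.09 against -0.03 over all genes. This turned to 0.18 when rescaled without the enzymes, where all genes stood at 0.17.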

How the data were processed

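Each cell was 1 sample of 1 group. The deposited table holds TPM per Ensembl gene, rounded to 2 decimals, a unit taken from the values, which sum to 1000000 in 87 cells. The submitters' processing notes list the mm10 build and the tools RSEM 1.2.21, STAR 2.4.2a and edgeR without giving their use. Symbols and spans came from GENCODE release M21 (GRCm38) and gene starts from RefSeq (GRCm38.p6), which held 43 of the 59 factors. TPM keep no depth, so the depth per cell is unknown.

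Genes at or above 1 TPM in at least 10% of cells (11 cells) were kept. Squared CVs were compared with a lowess trend (span 0.3), and genes at 2 times the trend counted as variable. Correlations used log2(TPM + 1), and scores were mean z-scores. Cells 1 to 48 and 49 to 91 were divided at a bound from earlier results. Other pseudocounts, filters, scalings and sets of cells were tried. The functions were tested on simulated data. The factors, gene lists and comparisons were chosen with earlier results of these data known. Every factor could be named, and of other genes the 5 nearest each score and the 2 of highest mean in each list; a gene among the nearest is not reported here. No cell was left out and no doublet caller was run. Python 3.11.15, pandas 2.3.3, scipy 1.17.1 and statsmodels 0.14.6 were used.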

Additional observations from a re-analysis of the deposited data

How the results depend on the processing

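Of 99 values under alternatives, 87 stayed within a set limit, 11 moved beyond it and 1 changed sign. The limit was 1 SD over factors or pairs, 1 SD over cells for paralog shares, and 1.5 times for counts. It is wide. A fall of the median correlation of all factors with the ribosomal protein score from 0.18 to 0.01 lay within it. Scaling mattered most. With median-of-ratios scaling the median correlation of eIF3 subunits with the ribosomal protein score was 0.03 in place of 0.28, that between eIF3 subunits 0.03 in place of 0.20, and the short-total minus full-total difference -0.03 in place of -0.29. The count of factors at or above 0.3 was then 6 in place of 14 with the ribosomal protein score and 1 in place of 22 with the ER chaperone score. As residuals on the number of genes detected, the count with the ER chaperone score was 6. Those counts were added after the values were seen. Without the digestive enzymes the short-total difference was -0.02, the difference between cells 49 to 91 and cells 1 to 48 was 0.18 in place of -0.09, and 2 factors were variable in place of 1. There were 4 variable factors at 1.5 times the trend and 0 with a filter of 25% of cells. At 5 TPM, 11 factors were found in every cell, in place of 20. No share of all genes was set beside these counts of variable or detected factors. They therefore do not compare the factors with other genes. Over 14 alternatives each, the median correlation with the ribosomal protein score lay between 0.01 and 0.23 for all factors and between 0.37 and 0.55 for elongation factors. The cause of these changes was not tested. No paired analysis was possible because all cells form 1 group. Without read depth, a factor at 0 TPM may be below detection.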

Other observations

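Cell 40, which held 4 of 5 endothelial markers and the most genes detected (6946), had the highest value of 11 of the 53 factors, among them Eif1 at 182 TPM, Eif1b at 26.4 TPM, Eif4a3 at 28.3 TPM, Eif4e at 17.2 TPM and Eif3m at 56.4 TPM. It also had the highest value of 10.4% of all genes that passed the filter. It stood above the median in 48 of 53 factors, where 81.8% of all genes did. Cell 31, which shared the cell cycle genes with cell 40 in earlier results of these data, stood above the median in 32 of 53 factors, where 46.5% of all genes did, and was the highest cell for Eef1b2, at 203 TPM. Cell 54 was the highest for 5 factors, among them Eef1a1 at 858 TPM, Eef2 at 110 TPM, Eef1g at 80.7 TPM and Eif4a2 at 45.1 TPM. The short-total cell with the fewest genes detected (2624) was the lowest for 8 of the 30 factors above 0 TPM in every cell. The share of all genes highest in cell 54, or lowest in that short-total cell, was not taken. Those counts therefore have no background beside them. The part that the number of genes detected plays in these values was not tested.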
